A study of Homo sapiens with 15 samples.

Results

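Transcripts of 9 complement and complement-related genes that monocytes and macrophages are known to make were followed through cytarabine and FL-Fc-DM1 treatment of Molm-13 leukaemia cells. The genes were taken by symbol from the deposited expression table, 9 of the 20375 genes in it: C1QA, C1QB and C1QC, the chains of C1q; C3, CFD and CFP of the alternative pathway; the receptors C3AR1 and C5AR1; and A2M, the protease inhibitor alpha-2-macroglobulin. The rule goes by name and uses no measured value, although the set was put together with earlier results of these data known.

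Molm-13 is a human line of monocytic acute myeloid leukaemia that carries an internal tandem duplication of FLT3, a receptor tyrosine kinase. It is 1 cell line, so the groups model 1 leukaemia. Polyadenylated RNA was sequenced from 15 libraries, 3 in each of 5 groups. Cells of 2 groups received 1 nM FL-Fc-DM1 for 24 hours after 3 days in 0.5 µM or 1 µM cytarabine, with cytarabine withdrawn when FL-Fc-DM1 was added. Cells of 2 further groups stayed in 0.5 µM or 1 µM cytarabine for the full 4 days, and control cells were cultured for 4 days without either agent. A difference between FL-Fc-DM1 and continued cytarabine therefore holds the new agent and the withdrawal together. Cytarabine is a nucleoside analog that blocks DNA synthesis. The labels spell out neither FL nor DM1; in the field these usually stand for the FLT3 ligand and for mertansine, which binds tubulin. For the conjugate-treated cells the protocol text speaks of THP-1, a different monocytic line, but every library is labelled Molm-13 by its title and its cell line entry, and the design text names Molm-13 too. Separate cultures within a group are not stated. The p-values then measure only the spread between libraries within groups, taken over all 5 groups, which may be technical.

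Complement is a cascade of proteins that tags and lyses targets. The classical pathway starts when C1q binds an antibody or a surface, and the alternative pathway starts from C3 itself, which factor D and properdin help to build into a convertase. Cleavage of C3 and C5 releases small peptides that recruit myeloid cells through C3AR1 and C5AR1. The liver makes most plasma complement, but monocytes and macrophages make C1q, C3, factor D and properdin locally. Alpha-2-macroglobulin traps proteases and belongs to the same thioester protein family as C3.

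Sequences upstream of the gene start were looked up in RefSeq (GRCh38.p14), where 6 of the 9 genes matched: C1QA, C1QB, CFD, CFP, C3AR1 and C5AR1. C1QC, C3 and A2M had no match. The 250 bases before each start were searched on both strands for the letters of PU.1 (GAGGAA), C/EBP (TTGCNNAA), STAT (TTCNNNGAA), the interferon-stimulated response element and NF-kappaB, which are motifs of factors known from myeloid or inflammatory gene control. No match overlapped another. The promoters of 4 genes are shown. The first pair belongs to C1QA and C1QB, which lie near each other on chromosome 1 with C1QC between them, and of which C1QA was counted in treated cells and C1QB was almost never counted. The other pair belongs to CFP and C5AR1, which hold the same PU.1 letters and differed in their response to cytarabine. Capitals mark the matches, and positions are counted back from the first base before the gene start.
C1QA promoter: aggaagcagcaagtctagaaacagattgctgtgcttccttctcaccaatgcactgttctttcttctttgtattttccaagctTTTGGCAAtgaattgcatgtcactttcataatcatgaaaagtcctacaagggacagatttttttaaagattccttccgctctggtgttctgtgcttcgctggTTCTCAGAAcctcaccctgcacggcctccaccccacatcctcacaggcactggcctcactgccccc
C1QB promoter: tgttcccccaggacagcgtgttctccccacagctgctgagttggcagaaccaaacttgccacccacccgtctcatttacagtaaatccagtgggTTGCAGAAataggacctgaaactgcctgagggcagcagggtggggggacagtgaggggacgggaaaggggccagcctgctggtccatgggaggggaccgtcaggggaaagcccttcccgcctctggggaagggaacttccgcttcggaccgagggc
CFP promoter: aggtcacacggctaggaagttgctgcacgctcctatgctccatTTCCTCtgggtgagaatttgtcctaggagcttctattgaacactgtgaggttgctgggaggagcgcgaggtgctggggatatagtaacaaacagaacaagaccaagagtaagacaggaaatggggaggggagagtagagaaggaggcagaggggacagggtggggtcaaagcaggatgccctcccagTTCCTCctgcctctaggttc
C5AR1 promoter: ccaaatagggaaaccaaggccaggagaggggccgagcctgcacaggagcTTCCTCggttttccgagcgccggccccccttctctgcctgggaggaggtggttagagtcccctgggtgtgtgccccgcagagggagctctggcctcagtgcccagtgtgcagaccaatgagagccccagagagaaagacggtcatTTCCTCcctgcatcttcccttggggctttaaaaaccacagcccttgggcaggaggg
The C1QA sequence is chr1:22636213-22636462 on the plus strand and holds 1 C/EBP match from -168 to -161, on the minus strand, and 1 STAT match from -66 to -58. The C1QB sequence is chr1:22652986-22653235 on the plus strand and holds 1 C/EBP match from -156 to -149. The CFP sequence is chrX:47629931-47630180 on the minus strand, with PU.1 letters from -207 to -202 and from -20 to -15. The C5AR1 sequence is chr19:47309611-47309860 on the plus strand, with PU.1 letters from -201 to -196 and from -56 to -51. All 4 PU.1 matches lie on the strand opposite to the gene and read TTCCTC as printed. None of the motifs was found in the CFD and C3AR1 windows. Among all 35116 promoters of the same table and length, 23.6% held the PU.1 letters, 9.05% those of C/EBP, 6.57% those of STAT, 3.02% those of the interferon element and 0.527% those of NF-kappaB, so the matches describe the letters in these windows and mark no binding site.

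Library depth ran from 10858017 to 16965626 counts. Values below are CPM, counts scaled to a library total of 1000000, or TPM, the authors' transcript abundances, which also divide by transcript length before the same scaling. Replicates correlated at 0.979 or above on log2 CPM, and the first principal component, with 60.7% of the variance, separated control from treated libraries. The monocyte markers LYZ, CD4, CD33, CD68 and CSF1R were counted in every group, but CD14 was at 0.233 CPM in control cells, and the macrophage markers CD163 and MRC1 were at or below 1.21 CPM and 0.202 CPM in all groups. The summed level of the 12 monocyte and macrophage markers ran from 16271 to 17018 CPM in FL-Fc-DM1 libraries after 0.5 µM cytarabine, from 14360 to 14809 CPM after 1 µM, from 9471 to 9978 CPM in 0.5 µM cytarabine, from 7479 to 7675 CPM in 1 µM cytarabine and from 752.6 to 780.6 CPM in control, most of it LYZ. This list was higher in treated than in control cells, as most of the complement genes were, and its part in their changes was not tested. In 1 µM against 0.5 µM cytarabine 0 of the 11 markers were higher and 5 lower, where 9.08% of all genes tested were higher and 10.3% lower. In bulk RNA, more cells of a kind and more RNA per cell cannot be told apart. Of 8 hepatocyte markers, 7, among them ALB and APOA1, were at or below 0.0765 CPM in every group. The eighth, HP, averaged 54.3 and 52.5 CPM in FL-Fc-DM1 cells after 0.5 and 1 µM, 23.8 and 15.8 CPM in 0.5 and 1 µM cytarabine, and 0.699 CPM in control.

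On the per-length scale, factor D dominated the set. The 9 genes summed to 405 ± 9.34 TPM in FL-Fc-DM1 cells after 0.5 µM cytarabine, 461 ± 6.88 TPM after 1 µM, 410 ± 5.59 TPM in 0.5 µM cytarabine, 449 ± 33.4 TPM in 1 µM cytarabine and 103 ± 6.24 TPM in control (SD, n = 3 each). CFD alone made up 76.1% and 60.4% of the sum in FL-Fc-DM1 cells after 0.5 and 1 µM, 74.9% and 66.9% in 0.5 and 1 µM cytarabine, and 91.6% in control. The share of C3 was 9.94% and 27.5% in FL-Fc-DM1 cells after 0.5 and 1 µM, 11.8% and 22.3% in 0.5 and 1 µM cytarabine, and 2.91% in control. The set was thus almost all factor D in control cells and held a visible part of C3 in treated cells, larger after the higher cytarabine dose. Transcript length behind TPM was not the same in all libraries, so changes were tested on counts. The longest implied length was 5.84 times the shortest for A2M, 1.54 times for C5AR1 and 1.48 times for C3. The median was 1.12 times over 10830 genes with at least 10 counts in every library. A2M and C5AR1 fell below that count, and the shortest A2M length came from control replicate 1, with 3 counts.

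**Figure D1:**
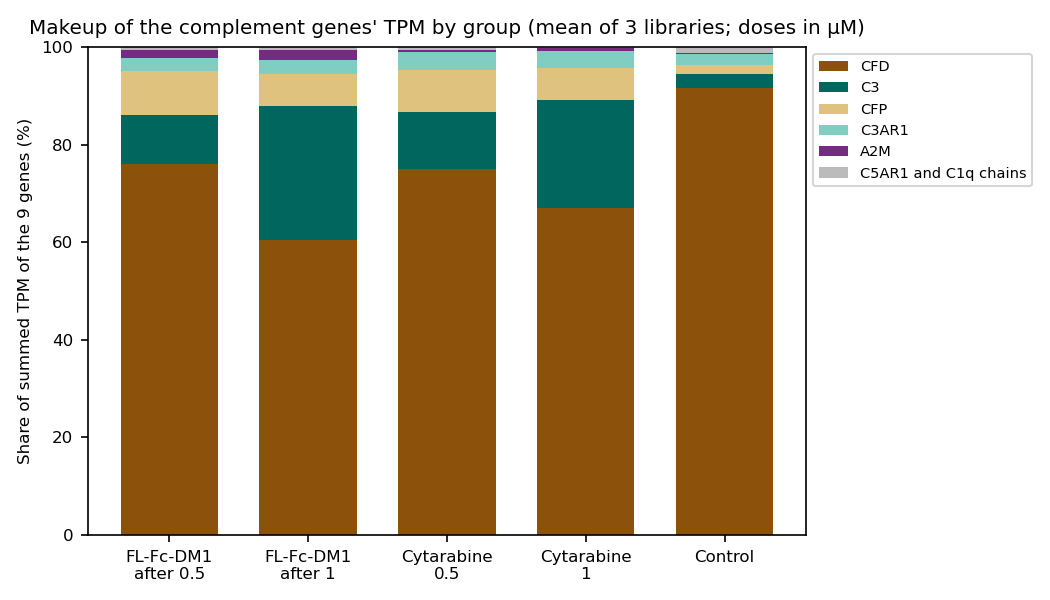
Share of the summed TPM of the 9 genes, in percent, taken by each gene in each group (mean of 3 libraries, stacked bars from 0 to 100). CFD fills 91.6% of the control bar, and C3 fills 27.5% of the bar for FL-Fc-DM1 after 1 µM cytarabine against 2.91% of the control bar.

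Changes were tested with edgeR's quasi-likelihood test in 1 fit over all 15 libraries, with Benjamini-Hochberg adjustment over the 12355 genes that passed a filter on low counts. Fold changes below come from that fit, as log2 values with their standard error (SE), and a gene was called at an adjusted p under 0.05. Of the 9 genes, 7 passed the filter, and C1QB and C1QC did not. C1QA and A2M passed through the treated groups alone, so a difference from control was built into their passing and their calls against control support nothing. After 4 days in 0.5 µM cytarabine 6 of the 7 were called higher and 0 lower than in control, where 73.2% of all genes tested were called in either direction, 38.0% higher and 35.2% lower. In 1 µM cytarabine 6 were higher and 1 lower, where 75.9% of all genes were called, 39.3% higher and 36.6% lower. Without C1QA and A2M, 4 of 5 genes were higher and 0 lower at 0.5 µM, and 4 were higher and 1 lower at 1 µM. The median log2 fold change of these 5 genes was 2.85 at 0.5 µM and 2.88 at 1 µM, beside a median of 0.03 over all genes at both doses.

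**Figure D2:**
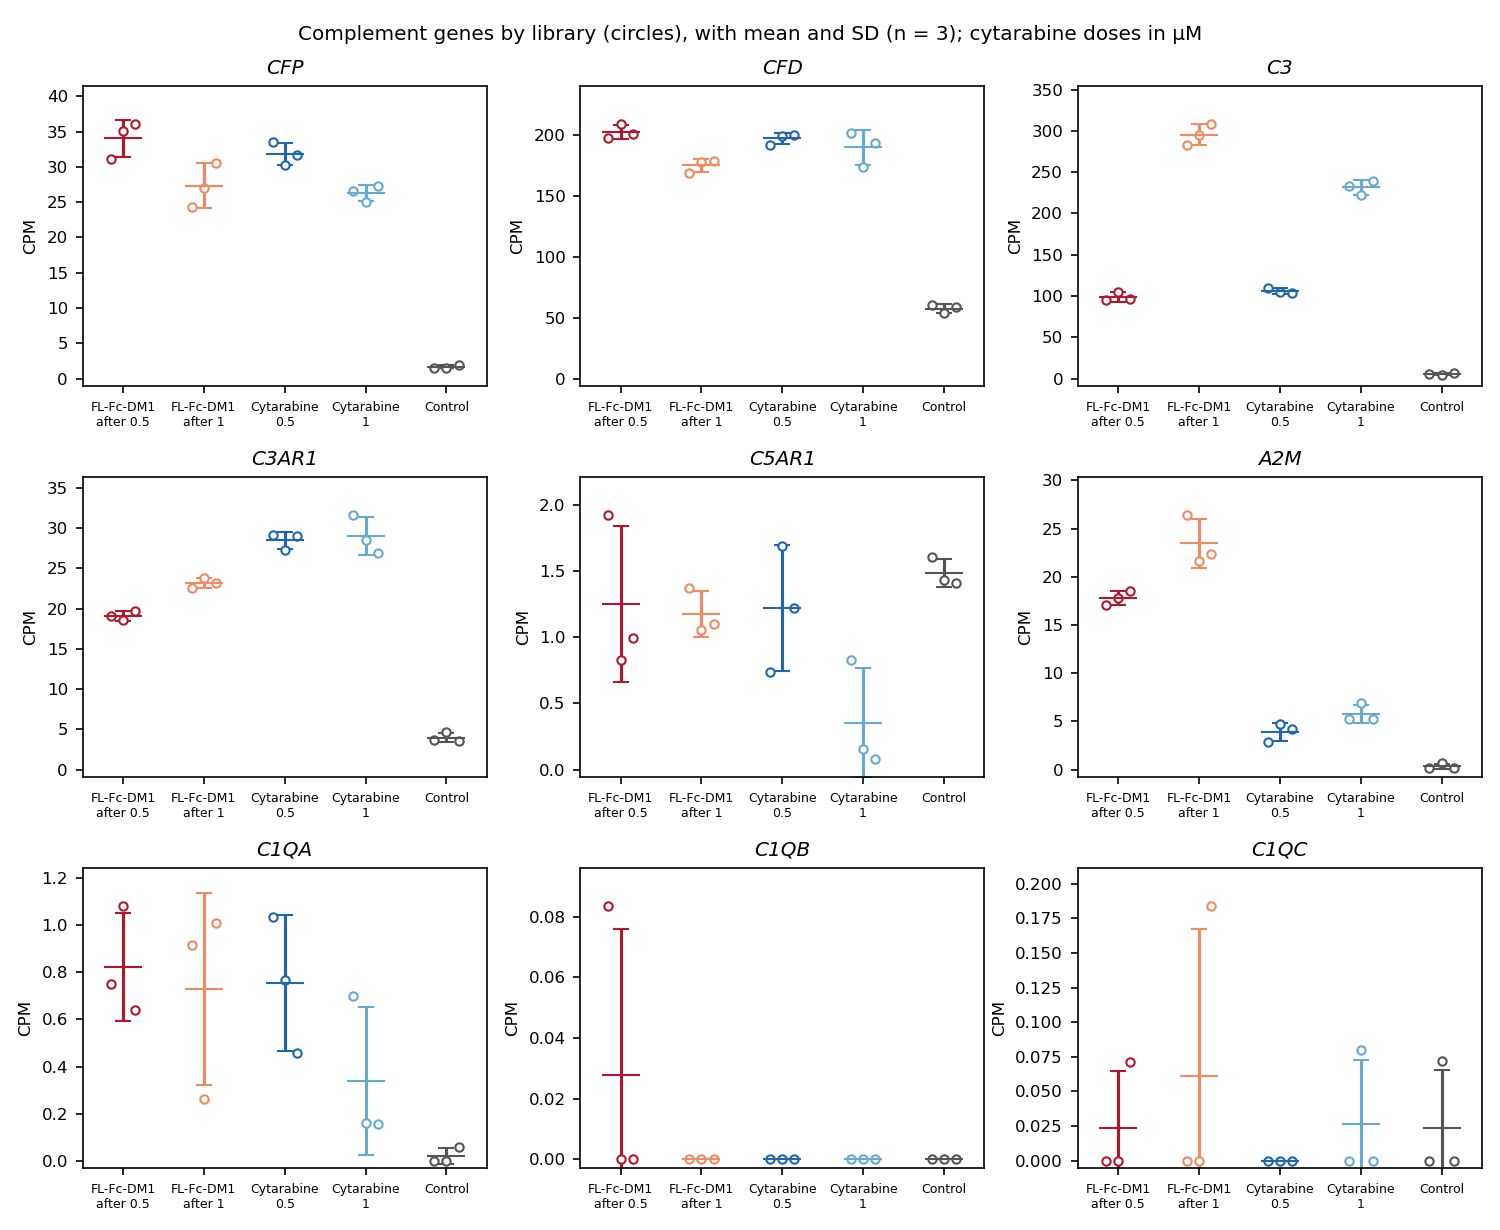
CPM of each of the 9 genes in each library (circles), with the group mean and SD (lines, n = 3) and cytarabine doses in µM. All 12 treated libraries lie above the 3 control libraries for CFP, CFD, C3, C3AR1, A2M and C1QA, and C5AR1 is lowest in 1 µM cytarabine.

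Factor D (ENSG00000197766), the serine protease that activates the alternative pathway convertase, was the most abundant of the set on the TPM scale in every group. CFD had 198, 209 and 201 CPM in FL-Fc-DM1 cells after 0.5 µM cytarabine, 169, 178 and 179 CPM after 1 µM, 192, 199.6 and 200.4 CPM in 0.5 µM cytarabine, 202, 174 and 194 CPM in 1 µM cytarabine, and 60.3, 53.7 and 58.7 CPM in control. The treated groups overlapped their neighbours in level, and all treated libraries lay above all control libraries. CFD rose 3.42-fold in 0.5 µM cytarabine (log2 fold change 1.77 ± 0.052, edgeR adjusted p = 1.04e-20) and 3.30-fold in 1 µM (1.72 ± 0.052, edgeR adjusted p = 1.66e-20). Against cytarabine, FL-Fc-DM1 changed CFD little: the log2 difference was 0.04 ± 0.0469 after 0.5 µM (95% interval -0.05 to 0.13, edgeR adjusted p = 0.544) and -0.12 ± 0.0479 after 1 µM (edgeR adjusted p = 0.0457). The call after 1 µM was lost in 17 of 22 alternatives, with edgeR adjusted p from 0.0535 to 0.284 when 1 library was left out. It held only without control replicate 1 or 2, 1 µM cytarabine replicate 2, or FL-Fc-DM1 after 0.5 µM replicate 1, and in the fit with a replicate block.

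Properdin (ENSG00000126759), which holds the alternative pathway convertase together, followed cytarabine more steeply than factor D. CFP had 31.1, 35.1 and 36.05 CPM in FL-Fc-DM1 cells after 0.5 µM cytarabine, 24.3, 27.1 and 30.6 CPM after 1 µM, 33.5, 30.3 and 31.7 CPM in 0.5 µM cytarabine, 26.5, 25.1 and 27.3 CPM in 1 µM cytarabine, and 1.54, 1.58 and 2.00 CPM in control. The control libraries stood far below the rest, and the treated groups overlapped with their neighbours. CFP rose 18.5-fold in 0.5 µM cytarabine (log2 4.21 ± 0.131, edgeR adjusted p = 4.15e-20) and 15.3-fold in 1 µM (3.93 ± 0.134, edgeR adjusted p = 2.47e-19). No change was called between FL-Fc-DM1 and cytarabine, with log2 differences of 0.10 ± 0.0844 after 0.5 µM (95% interval -0.07 to 0.27, edgeR adjusted p = 0.353) and 0.05 ± 0.0893 after 1 µM (-0.12 to 0.23, edgeR adjusted p = 0.660). CFP and C5AR1 both hold PU.1 letters in the promoter windows, as did 23.6% of all promoters searched, and no effect of these letters was tested.

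C3 (ENSG00000125730), the central protein on which all complement pathways converge, differed between the cytarabine doses as well as from control. C3 had 94.8, 105 and 96.4 CPM in FL-Fc-DM1 cells after 0.5 µM cytarabine, 283, 294 and 308 CPM after 1 µM, 109.9, 105 and 104 CPM in 0.5 µM cytarabine, 233, 222 and 239.7 CPM in 1 µM cytarabine, and 6.11, 4.94 and 7.11 CPM in control. The order of the groups was FL-Fc-DM1 after 1 µM, 1 µM cytarabine, 0.5 µM cytarabine, FL-Fc-DM1 after 0.5 µM and control, and only the pair at 0.5 µM overlapped. C3 rose 17.3-fold in 0.5 µM cytarabine (log2 4.11 ± 0.0803, edgeR adjusted p = 1.64e-24) and 37.8-fold in 1 µM (5.24 ± 0.0744, edgeR adjusted p = 1.91e-27). FL-Fc-DM1 after 1 µM was 1.27-fold above 1 µM cytarabine (log2 0.35 ± 0.0466, edgeR adjusted p = 9.61e-07), a call that limma on log2 TPM did not make (adjusted p = 0.0774 with 0.5 added and 0.113 with 0.1 added). After 0.5 µM the log2 difference was -0.10 ± 0.0533 (95% interval -0.21 to 0.00, edgeR adjusted p = 0.125). C3 overlaps GPR108 on the same strand in GENCODE v29. GPR108 averaged 72.3 and 77.9 CPM in FL-Fc-DM1 cells after 0.5 and 1 µM, 72.4 and 79.9 CPM in 0.5 and 1 µM cytarabine, and 81.3 CPM in control. How reads were assigned between C3 and GPR108 was not tested.

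The receptors of the 2 peptides moved differently. C3AR1 (ENSG00000171860), the receptor of C3a, had 19.1, 18.5 and 19.7 CPM in FL-Fc-DM1 cells after 0.5 µM cytarabine, 22.5, 23.7 and 23.2 CPM after 1 µM, 29.2, 27.3 and 29.003 CPM in 0.5 µM cytarabine, 31.6, 28.5 and 26.9 CPM in 1 µM cytarabine, and 3.70, 4.66 and 3.59 CPM in control. The cytarabine groups were highest and overlapped each other, the FL-Fc-DM1 groups lay below them without overlap, and control was lowest. C3AR1 rose 7.20-fold in 0.5 µM cytarabine (log2 2.85 ± 0.107, edgeR adjusted p = 2.49e-18) and 7.35-fold in 1 µM (2.88 ± 0.107, edgeR adjusted p = 1.51e-18). It fell with FL-Fc-DM1 against cytarabine, by 0.58 ± 0.087 on the log2 scale after 0.5 µM (edgeR adjusted p = 6.06e-06) and by 0.33 ± 0.086 after 1 µM (edgeR adjusted p = 0.00281). The call after 1 µM was not made by limma on log2 TPM (adjusted p = 0.0640 with 0.5 added and 0.0729 with 0.1 added).

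C5AR1 (ENSG00000197405), the receptor of C5a and of high level on mature monocytes and neutrophils, was near the limit of counting. C5AR1 had 1.92, 0.832 and 0.995 CPM in FL-Fc-DM1 cells after 0.5 µM cytarabine, 1.37, 1.05 and 1.10 CPM after 1 µM, 0.741, 1.69 and 1.22 CPM in 0.5 µM cytarabine, 0.827, 0.160 and 0.0776 CPM in 1 µM cytarabine, and 1.61, 1.43 and 1.41 CPM in control. These values rest on 1 to 26 counts a library, with 13, 2 and 1 counts in 1 µM cytarabine, whose 3 libraries lay below every control library. C5AR1 was 3.83-fold lower in 1 µM cytarabine than in control (log2 -1.94 ± 0.537, edgeR adjusted p = 0.00219). The size rests on 1 µM cytarabine replicate 1, which holds 13 of the counts: without it the log2 difference was -3.55 (edgeR adjusted p = 7.06e-05), and with limma on log2 TPM with 0.5 added it was -1.18 (adjusted p = 0.00161). The log2 difference at 0.5 µM was -0.29 ± 0.453 (95% interval -1.17 to 0.60, edgeR adjusted p = 0.579). FL-Fc-DM1 after 1 µM was 3.04-fold above 1 µM cytarabine (log2 1.60 ± 0.575, edgeR adjusted p = 0.0251), and without 1 µM cytarabine replicate 1 the log2 difference was 3.21 (edgeR adjusted p = 0.00102). That call, made with all libraries, was lost without 1 µM cytarabine replicate 2 (log2 1.29, edgeR adjusted p = 0.0939) or replicate 3 (1.16, edgeR adjusted p = 0.110). It was also lost without FL-Fc-DM1 after 1 µM replicate 1 (1.48, edgeR adjusted p = 0.0680). The same held when only the groups compared were fitted (1.61, edgeR adjusted p = 0.0663). After 0.5 µM the log2 difference was 0.03 ± 0.475 (95% interval -0.90 to 0.96, edgeR adjusted p = 0.964).

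A2M (ENSG00000175899) was higher with FL-Fc-DM1 than with continued cytarabine after both doses. A2M had 17.05, 17.8 and 18.5 CPM in FL-Fc-DM1 cells after 0.5 µM cytarabine, 26.4, 21.6 and 22.3 CPM after 1 µM, 2.89, 4.69 and 4.198 CPM in 0.5 µM cytarabine, 5.21, 6.87 and 5.20 CPM in 1 µM cytarabine, and 0.185, 0.645 and 0.176 CPM in control. No 2 groups overlapped, and the order was FL-Fc-DM1 after 1 µM, FL-Fc-DM1 after 0.5 µM, 1 µM cytarabine, 0.5 µM cytarabine and control. A2M was 4.53-fold higher with FL-Fc-DM1 than with 0.5 µM cytarabine (log2 2.18 ± 0.171, edgeR adjusted p = 1.43e-10) and 4.08-fold higher than with 1 µM cytarabine (2.03 ± 0.159, edgeR adjusted p = 1.08e-10). Both calls held in all 22 alternatives. Against control, the fitted fold was 12.0 in 0.5 µM cytarabine and 17.5 in 1 µM, given as a description because A2M passed the filter through the treated groups and had only 3, 9 and 3 counts in the control libraries. Without control replicate 2, which holds 9 of those counts, the log2 fold changes were 4.37 and 4.91, against 3.58 and 4.13 with it. On the authors' TPM the gap was smaller: A2M averaged 1.77 ± 0.102 TPM in 0.5 µM cytarabine and 2.30 ± 0.363 TPM in 1 µM, against 0.299 ± 0.200 TPM in control (SD, n = 3 each), and the transcript length implied by counts and TPM was 1.43 and 1.64 times that in control. On log2 TPM with 0.5 added the differences were 1.54 and 1.83. The antisense gene A2M-AS1 overlaps A2M in GENCODE v29 and was not analysed here. The sources used here do not state a strand setting for the counting, and without one reads of the pair cannot be told apart.

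The 3 C1q chains, which stable C1q needs together, were not all counted in any 1 library. C1QA (ENSG00000173372) had 8.74, 13 and 8.89 counts in FL-Fc-DM1 libraries after 0.5 µM cytarabine, 10, 2.66 and 11.4 after 1 µM, 14, 10 and 5.63 in 0.5 µM cytarabine, 11, 2 and 2.29 in 1 µM cytarabine, and 0, 0 and 1 in control. All treated libraries lay above the control libraries, and the treated groups overlapped. C1QA summed to 30 counts in 0.5 µM cytarabine against 1 in control, a depth-scaled ratio of 35.7 (exact 95% interval 5.94 to 1458), and to 15 counts in 1 µM cytarabine against 1 in control, a ratio of 17.2 (2.65 to 724). The single control count lay in replicate 3, and 11 of the 15 counts in 1 µM cytarabine lay in replicate 1, without which the difference at 1 µM was not called (edgeR adjusted p = 0.111). FL-Fc-DM1 did not differ detectably from cytarabine at this depth, with log2 differences of 0.11 ± 0.561 after 0.5 µM (95% interval -0.99 to 1.21, edgeR adjusted p = 0.887) and 1.00 ± 0.651 after 1 µM (-0.28 to 2.28, edgeR adjusted p = 0.218). The difference after 1 µM was called without 1 µM cytarabine replicate 1 (log2 2.14, edgeR adjusted p = 0.0414). C1QC (ENSG00000159189), which lies between C1QA and C1QB on chromosome 1, had 1 count in FL-Fc-DM1 libraries after 0.5 µM, 2 after 1 µM, 0 in 0.5 µM cytarabine, 1 in 1 µM cytarabine and 1 in control. C1QB (ENSG00000173369) had 1 count in FL-Fc-DM1 libraries after 0.5 µM and 0 in the other 4 groups. A count of 0 over 3 libraries allows a level of up to 0.0903 CPM in FL-Fc-DM1 cells after 1 µM, 0.0758 and 0.0730 CPM in 0.5 and 1 µM cytarabine and 0.0636 CPM in control. Ratios and limits from counts cover counting error only.

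**Figure D3:**
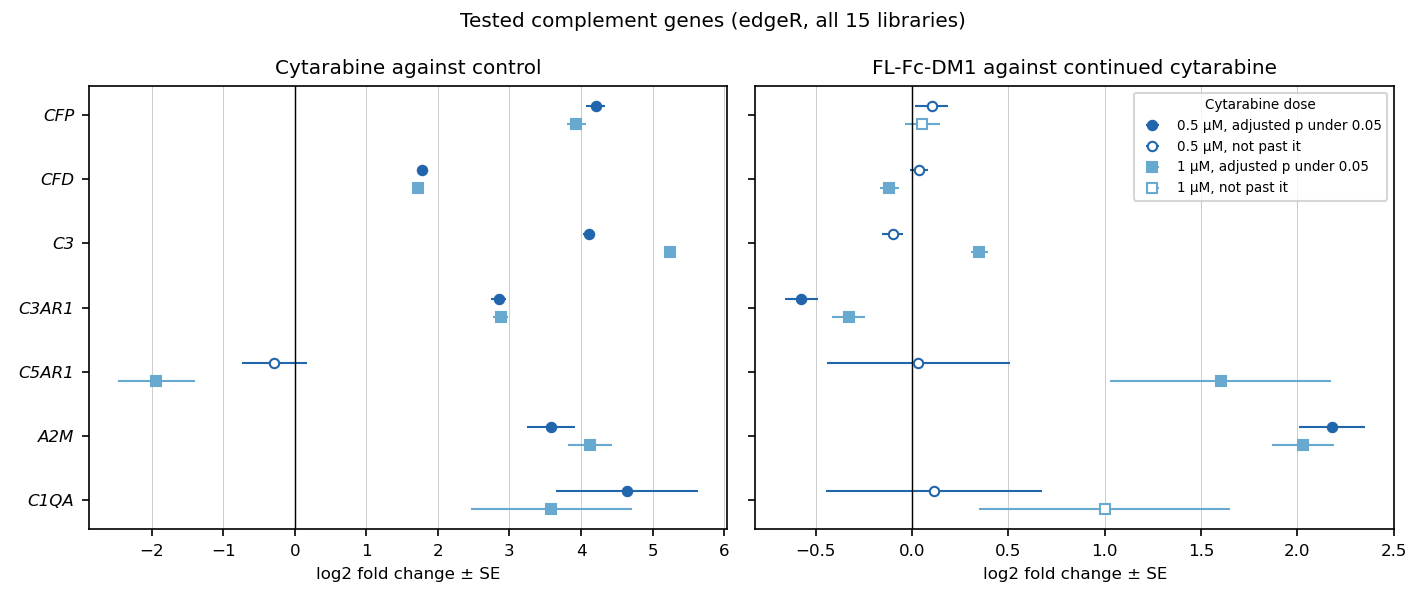
Log2 fold changes with SE from edgeR for the 7 genes tested, cytarabine against control (left panel) and FL-Fc-DM1 against continued cytarabine (right panel), at 0.5 µM (circles) and 1 µM (squares), with filled marks for adjusted p under 0.05. A2M stands at 2.18 and 2.03 in the right panel, and C3AR1 at -0.58 and -0.33.

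In FL-Fc-DM1 cells against continued cytarabine, 1 of the 7 genes was called higher (A2M) and 1 lower (C3AR1) after 0.5 µM, where 44.7% of all genes tested were called, 22.0% higher and 22.8% lower. After 1 µM 3 were called higher (A2M, C3 and C5AR1) and 2 lower (C3AR1 and CFD), where 45.7% of all genes were called, 23.5% higher and 22.2% lower. The median log2 difference of the 7 genes was 0.04 after 0.5 µM and 0.35 after 1 µM, beside -0.02 and 0.00 over all genes. Without C1QA and A2M the median of the other 5 genes was 0.03 after 0.5 µM and 0.05 after 1 µM. Against control, each FL-Fc-DM1 group had 6 of 7 genes higher, C1QA and A2M among them, and 0 lower, where 69.2% of all genes were called after 0.5 µM (35.0% higher and 34.2% lower) and 71.2% after 1 µM (35.8% higher and 35.4% lower). These comparisons share the control libraries with those of cytarabine.

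C3 was the gene of the set whose difference between cytarabine doses was called in every alternative run. In 1 µM against 0.5 µM cytarabine 4 of 7 genes were called, C3 and A2M higher and CFP and C5AR1 lower, where 19.3% of all genes tested were called, 9.08% higher and 10.3% lower. C3 was 2.19-fold higher in 1 µM (log2 1.13 ± 0.0498, edgeR adjusted p = 1.05e-14), a call that held in all 22 alternatives. The other 3 calls were each lost when 1 of several libraries was left out. The log2 difference of CFP was -0.27 ± 0.0861 (edgeR adjusted p = 0.0252), and its call was lost without 0.5 µM cytarabine replicate 1 or 3 or 1 µM cytarabine replicate 1 or 2 (adjusted p from 0.0527 to 0.123). The log2 difference of A2M was 0.55 ± 0.195 (edgeR adjusted p = 0.0488), and its call was lost in 13 of 22 alternatives, most clearly without 0.5 µM cytarabine replicate 1 (0.37, edgeR adjusted p = 0.252) or 1 µM cytarabine replicate 2 (0.41, edgeR adjusted p = 0.196). The log2 difference of C5AR1 was -1.65 ± 0.560 (edgeR adjusted p = 0.0392), and its call was lost in 8 of 22 alternatives, most clearly without 0.5 µM cytarabine replicate 2 (-1.35, edgeR adjusted p = 0.181) or 1 µM cytarabine replicate 3 (-1.21, edgeR adjusted p = 0.157). Without 1 µM cytarabine replicate 1 it was -3.26 (edgeR adjusted p = 0.00246). In FL-Fc-DM1 cells after 1 µM against after 0.5 µM, 5 of 7 genes were called, where 28.3% of all genes were, 14.3% higher and 14.0% lower. C3 was 2.99-fold higher (log2 1.58 ± 0.0504, edgeR adjusted p = 5.49e-18), A2M and C3AR1 were higher by less (0.40 ± 0.140, edgeR adjusted p = 0.0351, and 0.28 ± 0.0907, edgeR adjusted p = 0.0240), and CFP and CFD were lower (-0.32 ± 0.0876, edgeR adjusted p = 0.00727, and -0.21 ± 0.0479, edgeR adjusted p = 0.00167). The call of A2M was lost without any 1 of the 3 FL-Fc-DM1 libraries after 0.5 µM or without FL-Fc-DM1 after 1 µM replicate 1 (edgeR adjusted p from 0.0705 to 0.151). That of C3AR1 was lost without FL-Fc-DM1 after 0.5 µM replicate 1 or 2 or after 1 µM replicate 2 (edgeR adjusted p from 0.0635 to 0.0969). Limma on log2 TPM, with 0.5 or 0.1 added, did not make the calls of CFP (adjusted p = 0.0614 and 0.0761), CFD (0.0556 and 0.0568) or A2M (0.116 and 0.375).

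Whether FL-Fc-DM1 changed a gene by a different amount after the 2 doses was tested as an interaction, which called 1 of the 7 genes, C3, higher and 0 lower, where 3.07% of all genes were called, 2.14% higher and 0.931% lower. The FL-Fc-DM1 change of C3 was 0.35 after 1 µM and -0.10 after 0.5 µM on the log2 scale, a difference of 0.45 ± 0.0708 (edgeR adjusted p = 3.11e-04). Of the 6 genes not called, C5AR1, with low counts, had a wide 95% interval of 0.10 to 3.04 (edgeR adjusted p = 0.312), C3AR1 one of 0.01 to 0.49 (edgeR adjusted p = 0.334) and CFD a narrow one of -0.29 to -0.02 (edgeR adjusted p = 0.249). These intervals are for single genes and leave out 0, while the p-values above are adjusted over all 12355 genes. Before adjustment the edgeR p was 0.0460 for C5AR1, 0.0546 for C3AR1 and 0.0283 for CFD. The intervals take a fixed multiple of the SE, so that of C3AR1 leaves out 0 although its unadjusted p was above 0.05.

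Other genes of the cascade were counted on a list of 61, of which 38 had counts and 28 were tested. In 0.5 µM cytarabine 19 of the 28 were higher and 3 lower than in control, with a median log2 fold change of 1.36, and in 1 µM 22 were higher and 4 lower, with a median of 1.48. Among all genes tested 38.0% were higher and 35.2% lower at 0.5 µM, and 39.3% were higher and 36.6% lower at 1 µM. FCN1, CLU, C2, C1R, VSIG4, CR1 and SERPING1 averaged 0.0196 to 0.321 CPM in control and passed the filter through treated groups alone. A difference from control was built into their passing, so their calls against control support nothing. CSMD1, at 1.51 CPM in control and 0.327 to 0.706 CPM in treated groups, passed mainly through control. The counts and medians here include these genes. Among regulators 7 of 9 tested were higher and 2 lower at both doses, among receptors 6 of 9 were higher and 1 lower at 0.5 µM and 7 higher and 1 lower at 1 µM, and among recognition proteins and early proteases 4 of 7 were higher at 0.5 µM and 6 of 7 at 1 µM. Of the terminal components, which form the lytic pore, C5 and C8B were tested, and C6, C8A and C9 had no counts. CFB, the protease subunit of the alternative convertase that factor D cleaves, averaged 0.0554 and 0.150 CPM in FL-Fc-DM1 cells after 0.5 and 1 µM, 0.254 and 0.246 CPM in 0.5 and 1 µM cytarabine, and 0 in control, and did not pass the filter. C4A and C4B are near-identical copies whose reads may be split, so their values are uncertain.

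**Figure D4:**
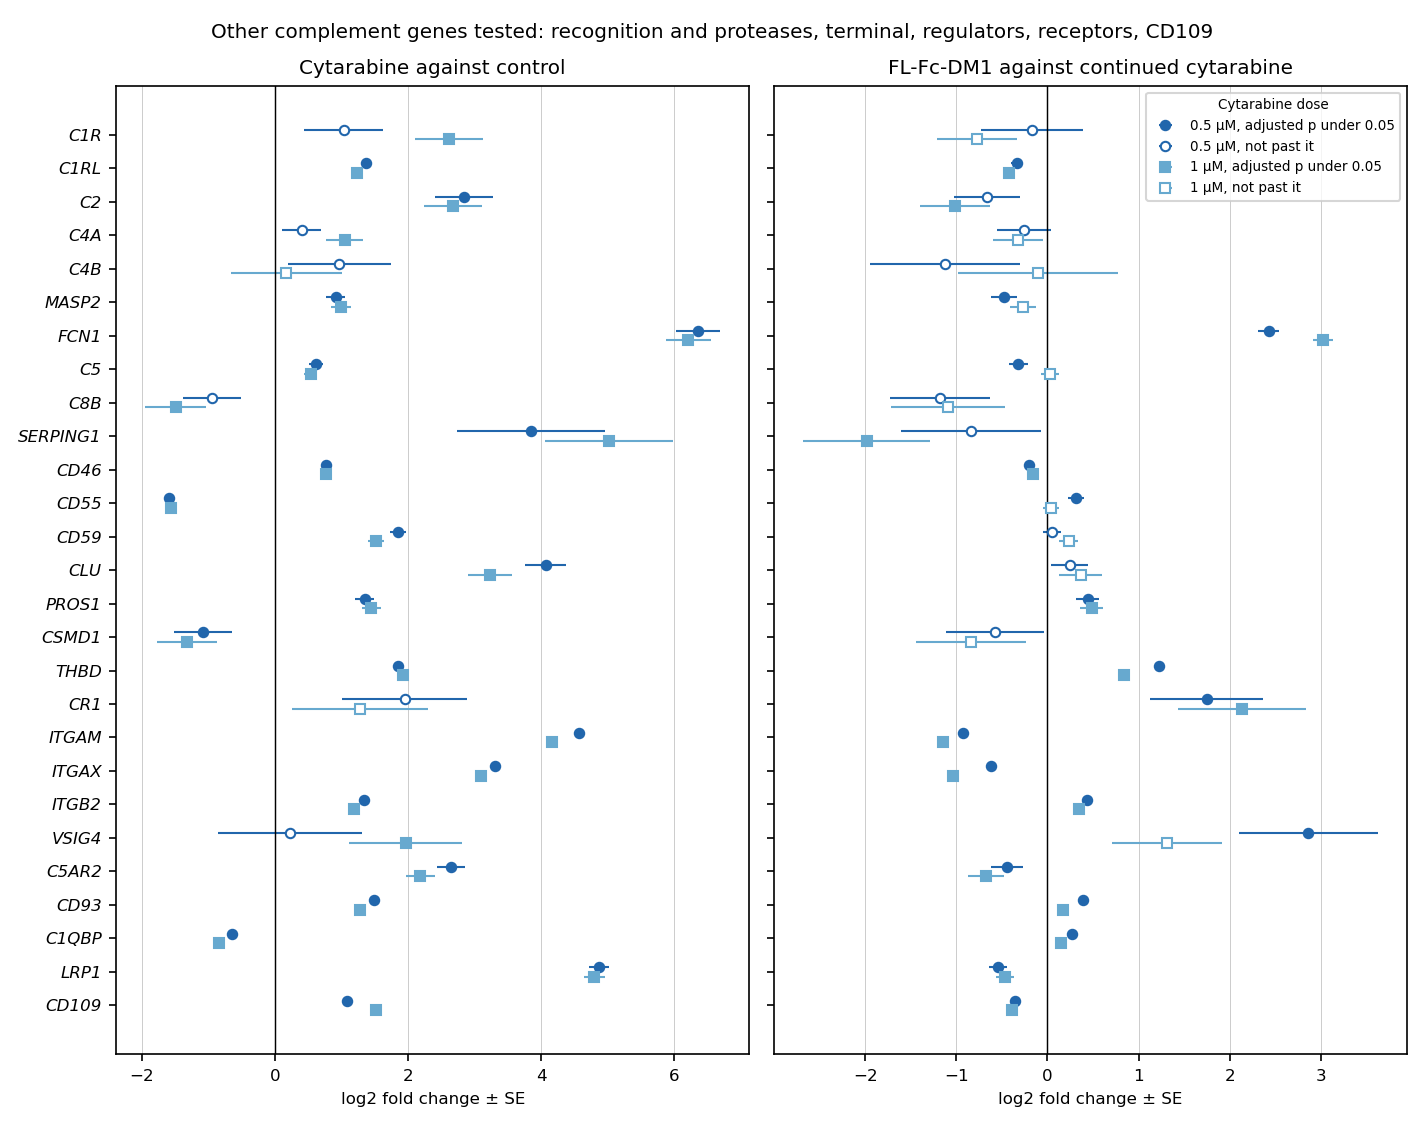
Log2 fold changes with SE from edgeR for the other complement genes tested, without 1 that is not reported here, cytarabine against control (left panel) and FL-Fc-DM1 against continued cytarabine (right panel), at 0.5 µM (circles) and 1 µM (squares), with filled marks for adjusted p under 0.05. FCN1 lies at the right in both panels, and ITGAM and ITGAX lie right of 0 in the left panel and left of 0 in the right panel.

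FCN1, ITGAM, LRP1 and CLU had some of the largest rises with cytarabine among these 28 genes. For FCN1 and CLU, which passed the filter through treated groups alone, the values against control are given as a description. The intervals of the FCN1 ratios cover counting error only. FCN1, a ficolin of monocytes that starts the lectin pathway, averaged 5.97 ± 0.512 CPM in 0.5 µM cytarabine and 5.44 ± 1.01 CPM in 1 µM, against 0.0641 ± 0.00672 CPM in control, or 236 and 221 counts against 3 (ratio 93.7, exact 95% interval 31.7 to 458, and ratio 84.5, 28.5 to 413). ITGAM, the alpha chain of complement receptor CR3, rose 23.6-fold in 0.5 µM (log2 4.56 ± 0.0686, edgeR adjusted p = 7.30e-27) and 17.8-fold in 1 µM (4.15 ± 0.07005, edgeR adjusted p = 5.10e-26). LRP1, the receptor that clears alpha-2-macroglobulin bound to a protease, averaged 35.5 ± 1.58 CPM in 0.5 µM cytarabine and 34.0 ± 5.95 CPM in 1 µM, against 1.23 ± 0.306 CPM in control, a rise of 29.1-fold and 27.8-fold. The regulator CLU, which restrains pore formation, rose 16.8-fold in 0.5 µM and 9.37-fold in 1 µM. CD55, a membrane protein that dissociates the convertase, averaged 20.1 ± 0.413 CPM in 0.5 µM cytarabine and 20.5 ± 3.19 CPM in 1 µM, against 60.7 ± 0.809 CPM in control, and fell 3.02-fold and 2.97-fold. C1QBP, a mainly mitochondrial protein first found by its binding to C1q, fell 1.57-fold and 1.78-fold.

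In FL-Fc-DM1 cells against cytarabine, 9 of the 28 other complement genes were higher and 10 lower after 0.5 µM, where 22.0% of all genes tested were higher and 22.8% lower. After 1 µM 7 were higher and 10 lower, where 23.5% of all genes were higher and 22.2% lower. The 28 genes include CR1 and VSIG4, which averaged 0.126 to 0.460 CPM in cytarabine and passed the filter mainly through the FL-Fc-DM1 groups. They also include SERPING1, at 0.238 and 0.236 CPM in FL-Fc-DM1 cells after 0.5 and 1 µM, which passed mainly through 1 µM cytarabine. Any calls of these genes here support nothing. FCN1 averaged 32.0 ± 2.12 CPM in FL-Fc-DM1 cells after 0.5 µM, against 5.97 ± 0.512 CPM in 0.5 µM cytarabine, and 43.9 ± 3.11 CPM after 1 µM, against 5.44 ± 1.01 CPM in 1 µM cytarabine. These were rises of 5.37-fold (edgeR adjusted p = 8.17e-15) and 8.13-fold (edgeR adjusted p = 8.73e-17). THBD, thrombomodulin, rose 2.33-fold after 0.5 µM and 1.80-fold after 1 µM, while PROS1, ITGB2 and CD93 rose by 1.13-fold to 1.40-fold at the 2 doses. ITGAM fell 1.90-fold after 0.5 µM and 2.21-fold after 1 µM, to 95.9 ± 3.13 and 62.3 ± 6.10 CPM, against 183 ± 4.61 and 138 ± 2.08 CPM in 0.5 and 1 µM cytarabine. ITGAX, the alpha chain of complement receptor CR4, fell 1.53-fold and 2.05-fold, whereas ITGB2, the beta chain that both receptors share, rose 1.35-fold and 1.27-fold. C5AR2, the other C5a receptor, fell 1.36-fold and 1.60-fold, and LRP1 fell 1.46-fold and 1.38-fold.

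The genes whose log2 CPM was most like that of each member over the 15 libraries are given as a description, since the libraries share their groups. For A2M FCN1 is given (Pearson r = 0.984), for CFP ADA2 (0.997) and CPVL (0.996), for C3 SLC23A2 (0.995) and FTH1 (0.994), for CFD AOC1 (0.995) and ICAM3 (0.995), and for C3AR1 RSRP1 (0.996) and ATP8B4 (0.994). C5AR1 and C1QA, with few counts, had lower values, 0.895 with TADA2B and 0.935 with ADPGK. FCN1 averaged 32.0 and 43.9 CPM in FL-Fc-DM1 cells after 0.5 and 1 µM, 5.97 and 5.44 CPM in 0.5 and 1 µM cytarabine and 0.0641 CPM in control, so that FCN1 and A2M were both highest in FL-Fc-DM1 cells after 1 µM and lowest in control.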

How the data were processed

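RNA of Molm-13 cells was measured in 15 libraries, 3 in each of 5 groups taken from the sample titles. Per the labels' protocols, oligo(dT) beads took out polyadenylated RNA, which was fragmented before random-primed cDNA synthesis and PCR. Tools listed in the submitters' processing notes, without their roles, are StringTie 1.3.1, HISAT2, edgeR, DESeq2 and fastp 0.18.0. A build, an annotation, a counting program and a strand setting were not given in the sources used here. The deposited table holds the authors' estimated counts per gene, in part not whole numbers, and the authors' TPM, which sums to 1000000 in each library and was used for levels between genes and as an alternative.

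Estimated counts were rounded to whole numbers and taken into edgeR 4.0.16, run in R 4.3.3 beside limma 3.58.1: genes were kept by filterByExpr by group, with its minimum count of 10 and minimum total of 15, scaled by TMM and tested by quasi-likelihood in 1 model of the 5 groups (10 residual degrees of freedom), with Benjamini-Hochberg adjustment. The test was run on simulated data first. SE is the log2 fold change divided by the square root of F, and 95% intervals are 1.96 SE to each side. CPM uses TMM-scaled totals. All changes are relative to a library's total. Alternatives were DESeq2 1.42.0, its size factors in edgeR, no low-count filter, only the groups compared, a replicate block, each library left out, and limma on log2(TPM + 0.5) and log2(TPM + 0.1), which understates changes of low genes. Same-numbered libraries did not deviate together (r from -0.062 to 0.080 over 30 pairs), so the main fit has no block.

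The 9 genes, the complement list and the marker lists were chosen with earlier results of these data known. Other complement genes were named by rule: called, with a mean of at least 5 CPM in a group compared, and among the 5 largest changes in each direction at either dose. Each tested gene was matched with the 2 genes of highest Pearson r among those of at least 10 CPM in a group. Some genes that these rules name are not reported here. Marker lists not described in the report stayed low: summed B cell markers reached 1.26 CPM, erythroid 0.191, megakaryocyte 1.02 and stromal and epithelial 3.27 CPM at most, while T and NK markers ran from 52.4 to 59.2 CPM in FL-Fc-DM1 libraries, 62.4 to 69.5 CPM in cytarabine and 29.9 to 33.4 CPM in control. Most of this was NKG7 in treated libraries, and in control NKG7 averaged 19.7 and CD3D 11.6 CPM.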

Additional observations from a re-analysis of the deposited data

Results flagged for a closer look

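C3 was singled out because its response to FL-Fc-DM1 differed between the 2 cytarabine doses by a direct test of that difference. The FL-Fc-DM1 change of C3 on the log2 scale was higher by 0.45 ± 0.0708 after 1 µM than after 0.5 µM (edgeR adjusted p = 3.11e-04, 3 libraries a group). After 1 µM the 3 FL-Fc-DM1 libraries had 283, 294 and 308 CPM, all above the 233, 222 and 239.7 CPM of 1 µM cytarabine. After 0.5 µM they had 94.8, 105 and 96.4 CPM and overlapped the 109.9, 105 and 104 CPM of 0.5 µM cytarabine. The difference was called in every leave-one-out fit and not by limma on log2 TPM (0.60, adjusted p = 0.218 with 0.5 added, and 0.61, adjusted p = 0.288 with 0.1 added).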

How the results depend on the processing

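Of 1380 values of single genes recomputed under the alternatives, 1290 kept their direction and side of the threshold, 68 lost a call, 2 gained one and 20 changed sign without being called. In 39 of 63 gene and comparison pairs every alternative kept direction and call, among them CFD, CFP, C3 and C3AR1 against control at both cytarabine doses and A2M in FL-Fc-DM1 against cytarabine. The sign changes were, on the log2 scale, in FL-Fc-DM1 against 0.5 µM cytarabine for C1QA (-0.13 to 0.43 with 1 library left out) and C5AR1 (-0.39 to 0.36 with 1 library left out, -0.024 with the replicate block, and -0.00076 and -0.0059 with limma). They were against 1 µM cytarabine for CFP (-0.021 to 0.13), between cytarabine doses for CFD (-0.10 to 0.0075) and C3AR1 (-0.042 to 0.078), between FL-Fc-DM1 groups for C1QA (-0.48 to 0.23) and C5AR1 (-0.31 to 0.34, and 0.15 and 0.22 with limma), and in the interaction for CFP (-0.14 to 0.031) and A2M (-0.30 to 0.027, and 0.12 and 0.087 with limma). The number of the 7 genes called for FL-Fc-DM1 against 1 µM cytarabine was 5, and 3 with only the groups compared, 2 with limma on log2 TPM at either added value, and 3 to 5 with 1 library left out. For 1 µM against 0.5 µM cytarabine it was 4, and 2 with only the groups compared, 2 with limma at either added value, and 1 to 4 with 1 library left out. For FL-Fc-DM1 after 1 µM against after 0.5 µM it was 5, and 2 with limma at either added value and 3 to 5 with 1 library left out. For the interaction it was 1, and 0 with limma at either added value and 1 to 2 with 1 library left out, since C5AR1 was also called without 1 µM cytarabine replicate 1 (log2 3.18, edgeR adjusted p = 0.0477). In the other comparisons leave-one-out counts ran from 6 to 7 for 1 µM cytarabine against control and stayed at the main count elsewhere. The cause of these changes was not tested. The replicate number as a block moved 1 of the calls, A2M in 1 µM against 0.5 µM cytarabine (log2 0.55, edgeR adjusted p = 0.0517), so that 3 genes were called there with the block. Over all genes limma called 1329 or 1266 for 1 µM against 0.5 µM cytarabine where edgeR called 2390, and 141 or 139 for the interaction where edgeR called 379. Depth limits C1QA, C1QB, C1QC and C5AR1, which had 26 counts or fewer in every library.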
